A study of Mus musculus with 20 samples.

Results

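Tumours of one diagnosis can differ from each other, and this account describes how far single genes varied between liver tumours of the same type. The members are 10 arrays, the 5 titled as adenomas and the 5 titled as carcinomas, out of 20 arrays in the series. They were chosen by their titles, with no use of measured values. The other 10 arrays, 5 from non-tumour liver of untreated mice and 5 from non-tumour liver of phenobarbital-fed mice, served only as the measure of how much a gene varies between livers. Group means were not compared.

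All 20 samples came from male C57BL/6 mice with a conditional knockout of Apc (APCko), so the non-tumour livers carry the same allele as the tumours. Each mouse had received a single intraperitoneal injection of 0.75 mg tamoxifen at 6 weeks of age and was placed on its diet 1 week later for 9 months. The untreated carcinomas and the untreated livers (group name H2O_NT) came from mice on standard chow, and the adenomas and the phenobarbital livers (PB_NT) from mice on chow with 0.05% phenobarbital. RNA was extracted with Trizol from snap-frozen tissue, labelled with biotin by a 3' amplification kit and hybridised to Affymetrix mouse expression arrays. The labels name the untreated liver as the matched control of the carcinomas and the phenobarbital liver as that of the adenomas.

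Several facts limit these groups. Each tumour type came from a single diet, so tumour type and diet cannot be told apart when adenomas and carcinomas are set side by side. The series design text names diethylnitrosamine where the sample protocols name tamoxifen, and the protocols do not settle this. The Cre driver and the deleted part of Apc are not given in the sources used here, and no liver with intact Apc was analysed here. The labels do not say whether the 5 arrays of a group came from 5 mice, nor whether a tumour and a liver array share a mouse. The p-values below therefore measure the spread between these samples, part of which may be technical.

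As background, APC is a scaffold of the complex that marks beta-catenin for destruction. Its loss turns on Wnt target genes, which in normal liver are active in the hepatocytes around the central vein. Phenobarbital activates the nuclear receptor CAR, which raises drug-metabolising enzymes such as Cyp2b10 and promotes the growth of hepatocyte tumours with active beta-catenin. Tumours that arise separately are clones of different cells, and they can lose hepatocyte functions, gain or lose chromosomes and take up other cell types to different extents.

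Values are log2 signals, so a difference of 1 means that the signal doubles. A gene's standard deviation (SD) over the 5 arrays of a group measured its variability. For the test, the distance of each array from its group's mean was compared between groups with limma across 18193 genes, two-sided, with Benjamini-Hochberg adjustment and a threshold of 0.05. The difference between the groups' mean distances is called the spread difference, in log2 units, and a gene is called more variable in a tumour type when it passed the test with a larger distance there than in a liver group. Counts over gene lists and p-values are against the matched liver unless another group is named. The 15 leading genes of each type and the genes divided by array below passed against both liver groups. Array medians lay between 5.52 and 5.63 on a scale that reached 15.09. Arrays of a group correlated at 0.969 to 0.986 in the adenomas and at 0.956 to 0.988 in the carcinomas, against 0.986 to 0.994 in the untreated and 0.993 to 0.995 in the phenobarbital livers. Albumin (Alb), named as the defining product of hepatocytes, was between 14.88 and 14.94 on the adenoma arrays and at 13.83, 9.18, 13.67, 14.03 and 12.59 on carcinoma arrays 1 to 5. Apc itself had an SD of 0.19 in the adenomas and 0.17 in the carcinomas, and did not pass against either liver group.

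Both tumour types varied more between samples than the livers did, for most genes. For each array, the distance of each gene from the mean of the other 4 arrays of the group was taken. The 5 values of a group are thus not independent of each other. The median distance over genes was 0.180, 0.204, 0.183, 0.204 and 0.181 on adenoma arrays 1 to 5, and 0.108, 0.105, 0.123, 0.109 and 0.110 on the phenobarbital livers. It was 0.174, 0.171, 0.210, 0.197 and 0.158 on carcinoma arrays 1 to 5, and 0.132, 0.129, 0.141, 0.148 and 0.128 on the untreated livers. In both comparisons every tumour array lay above every liver array of its matched control. The difference was 0.0794 for adenomas and 0.0466 for carcinomas, each with p = 0.00794 in a two-sided exact permutation test of 5 arrays against 5, the smallest p this design can give. The liver groups differed as well. Every phenobarbital liver lay below every untreated liver, with a difference of -0.0246 and the same p.

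The SD of a gene in the adenomas was above its SD in phenobarbital livers for 74.5% of genes, with a median ratio of 1.72. In the carcinomas it was above that in untreated livers for 65.9% of genes, with a median ratio of 1.35. These shares depend on the control, since 36.4% of genes had a larger SD in phenobarbital than in untreated livers (median ratio 0.819). Against phenobarbital livers the share was 74.5% for adenomas and 73.0% for carcinomas, and against untreated livers 68.1% and 65.9%. An SD of at least 1 was reached by 377 genes (2.07%) in adenomas and 721 genes (3.96%) in carcinomas, but by 57 genes in untreated and 9 genes in phenobarbital livers. The carcinomas had the higher number of genes with a large SD.

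**Figure D1:**
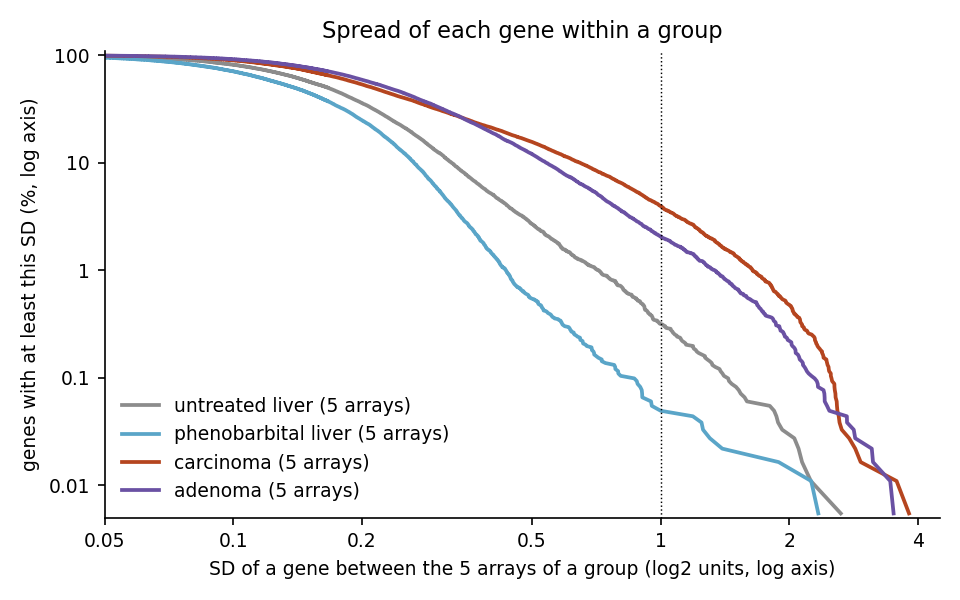
Share of all genes, in percent (log axis), whose standard deviation over the 5 arrays of a group is at least the value on the horizontal axis (log2 units, log axis), for the 4 groups. At an SD of 1, marked by the dotted line, the carcinomas stand at 3.96%, the adenomas at 2.07%, the untreated livers at 0.313% and the phenobarbital livers at 0.0495%.

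Between the liver groups, 8 genes (0.044%) were less variable under phenobarbital and none (0.0%) more, with 1001 genes at an unadjusted p under 0.05 by limma. Against phenobarbital livers, 1518 genes (8.34%) were more variable in adenomas and 27 (0.148%) less. Against untreated livers, 1113 genes (6.12%) were more variable in carcinomas and 96 (0.528%) less. Against the other liver group, 933 genes (5.13%) were more variable and 58 (0.319%) less in adenomas, and 1413 (7.77%) more and 31 (0.17%) less in carcinomas. Against both liver groups at once, 834 genes (4.58%) were more variable in adenomas and 968 (5.32%) in carcinomas, and 0.0055% of genes, a single gene model in carcinomas, were less. No gene (0.0%) was less variable in adenomas than in both liver groups by limma, with 42 at an unadjusted p under 0.05 in both. These counts depend on the measure of spread. When distances were taken from the group median, which makes 1 of 5 distances zero for every gene, limma called no gene in any comparison, against 1868 genes at an unadjusted p under 0.05 for adenomas and 1500 for carcinomas. With only the 10 arrays compared in the fit the counts against the matched liver fell to 604 and 104, and without carcinoma array 5 that of the carcinomas was 1832.

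Of the genes more variable than in the matched liver, 57 were found in both tumour types. They made up 3.75% of the adenoma genes, beside 6.12% of all genes called in carcinomas. They were also 5.12% of the carcinoma genes, beside 8.34% of all genes called in adenomas. The fit pooled each gene's error over all groups, so uneven distances in either tumour type also raise the error for the other. This can lower the overlap, so these shares cannot show whether the tumour types vary in different genes. Compared directly, 758 genes (4.17%) were more variable in adenomas and 835 (4.59%) in carcinomas. The genes that varied in carcinomas reached larger SDs, with a median of 0.890 against 0.515 for those of adenomas, and 407 of 968 against 145 of 834 had an SD of at least 1. Among the 968 carcinoma genes, 93 had a mean above 13 in untreated liver, close to the top of the scale, against 9 of the 834 adenoma genes in phenobarbital liver. How far the top of the scale narrows the liver groups for such genes was not tested.

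The most variable gene of the adenomas was Sult2a2, a sulfotransferase of steroids and bile acids that is expressed mainly in female liver. Its signal was 5.54, 12.62, 7.21, 13.54 and 7.99 on adenoma arrays 1 to 5, against 4.45 ± 0.14 (SD, n = 5) in phenobarbital livers. Adenomas 2 and 4 were high and all 5 lay above the liver mean, while the carcinomas lay between 4.15 and 4.88. Its SD was 3.51 and the spread difference 3.17 (SE 0.38, limma adjusted p = 0.000131). Sult1e1, the oestrogen sulfotransferase and also a female-biased gene, stood at 4.35, 4.87, 4.40, 12.48 and 6.79 against 5.68 ± 0.29 (SD, n = 5), so that adenoma 4 was far above the others. Its spread difference was 2.49 (SE 0.68, limma adjusted p = 0.0303), and the adjusted p was 0.0506 to 0.0642 when any single phenobarbital array was left out.

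Some genes that are normally high in male liver ran the other way. Cyp4a12a, a fatty acid hydroxylase of male liver, was at 12.41, 7.45, 12.04, 6.22 and 11.36, against 11.93 ± 0.14 (SD, n = 5) in phenobarbital livers. Adenomas 2 and 4, the 2 arrays highest for Sult2a2, were the 2 lowest here, and the other 3 were near the liver level (spread difference 2.62, SE 0.30, limma adjusted p = 7.64e-05). Keg1, a relative of glycine N-acyltransferase, had the same 2 arrays lowest at 9.39, 5.11, 10.12, 6.48 and 9.44 (spread difference 1.83, SE 0.29, adjusted p = 0.000907). Mup3, which encodes a major urinary protein, was at 7.12, 8.15, 12.18, 7.26 and 11.45 against 14.45 ± 0.04 (SD, n = 5), low in adenoma 1 as well. Its call (adjusted p = 0.00968) was lost without adenoma 3 (adjusted p = 0.0821) or adenoma 5 (0.0518), and its other probe set, dim in the adenomas with a mean of 3.43, had an SD of 0.14 there. Susd4, an inhibitor of complement, was high in adenomas 2 and 3 at 9.66 and 9.85 and at 6.21, 5.40 and 5.72 in the other 3 (adjusted p = 0.00038).

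Of 20 measured male-biased liver genes 6 were more variable in adenomas than in phenobarbital liver, and of 24 female-biased genes 7 were (30% and 29.2%, beside 8.34% of all genes). The median distance of the male-biased list from the adenoma mean was 0.12, -0.32, 0.50, -0.79 and 0.14 on arrays 1 to 5, and that of the female-biased list -0.25, 0.43, -0.27, 0.67 and -0.64. Adenomas 2 and 4 were thus below the group on the male list and above it on the female list, and adenomas 1 and 3 the reverse, by little on the male list in adenoma 1. Adenoma 5 was close to adenoma 1 on the male list and lowest on the female one. Cyp2b9, a female-biased target of CAR, did not follow that order, at 5.92, 9.77, 8.52, 6.10 and 11.76 (spread difference against phenobarbital livers 1.93, SE 0.45, adjusted p = 0.0131, and adjusted p = 0.079 against untreated livers).

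The remaining members of the 15 leading adenoma genes fell into a few patterns. Mgst2, a microsomal glutathione transferase, was at 9.54, 5.62, 7.34, 5.52 and 13 against 5.69 ± 0.25 (SD, n = 5), highest in adenoma 5 and at the liver level in adenomas 2 and 4. Ubd, the ubiquitin-like protein FAT10 that cytokines induce, was at 12.56, 6.61, 12.97, 8.28 and 10.12 against 6.39 ± 0.24 (SD, n = 5), so that adenoma 2 alone stayed near the liver level. Anxa13, an annexin of epithelial membranes, was at 7.97, 4.22, 9.95, 4.27 and 3.94, raised above the liver value of 5.07 ± 0.19 (SD, n = 5) only in adenomas 1 and 3. The limma adjusted p was 0.00624 for Mgst2, 0.00627 for Ubd and 0.000147 for Anxa13. Car4, a membrane-bound carbonic anhydrase, was at 9.88, 5.24, 8.47, 4.99 and 7.80 (adjusted p = 0.000565), with adenomas 2 and 4 at the liver level of 5.07. Of the 15 leading genes 6 had another probe set. Those of Car4 and Susd4 gave SDs of 2.82 and 1.91 and the same division of the 5 arrays. Those of Catsperd (SD 0.21), Cpe (0.03), Apela (0.75) and Mup3 did not, and had adenoma means of 3.77, 5.17, 4.49 and 3.43. Catsperd, a subunit of the sperm calcium channel, ran the opposite way at 5.64, 9.63, 5.47, 8.39 and 4.51 (adjusted p = 0.000359), high in adenomas 2 and 4.

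Other leading genes stood out on single arrays or rested on few of them. Cxcl2, a chemokine for neutrophils, was at 9.04 in adenoma 3 and between 3.52 and 4.22 in the other 4 (spread difference 1.77, SE 0.47, limma adjusted p = 0.0248). Without adenoma 3 the difference was 0.19 (adjusted p = 0.244), and the call was also lost without phenobarbital array 1, 2, 3 or 5 (0.0515 to 0.0549). Cyp2c65, a P450 enzyme, was at 9.30 in adenoma 2, near the 9.86 ± 0.20 (SD, n = 5) of phenobarbital livers. It was at 5.51 in adenoma 3, between the 2 liver levels. In adenomas 1, 4 and 5 it was at 3.67, 4.03 and 4.21, near the 3.74 ± 0.13 (SD, n = 5) of untreated livers. Its adjusted p was 0.0301 with all arrays and 0.0505 to 0.0631 without any single phenobarbital array. Apela, a peptide ligand of the apelin receptor, was at 6.89, 3.91, 9.92, 8.16 and 9.00, so that adenoma 2 alone stayed at the liver level of 3.96 (adjusted p = 0.0163). Cpe, carboxypeptidase E, was at 11.53, 5.86, 10.47, 7.85 and 8.84, and its call (adjusted p = 0.0302) was lost without phenobarbital array 1, 3, 4 or 5 (0.0574 to 0.0719) and with the mean of its probe sets (0.0666). With only the 10 arrays compared in the fit, the calls of Sult2a2, Cyp4a12a, Anxa13, Mup3, Susd4, Keg1, Catsperd and Car4 were kept among the 15 genes. With squared distances, those of Sult2a2, Cyp4a12a, Ubd, Susd4, Catsperd and Car4 were.

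**Figure D2:**
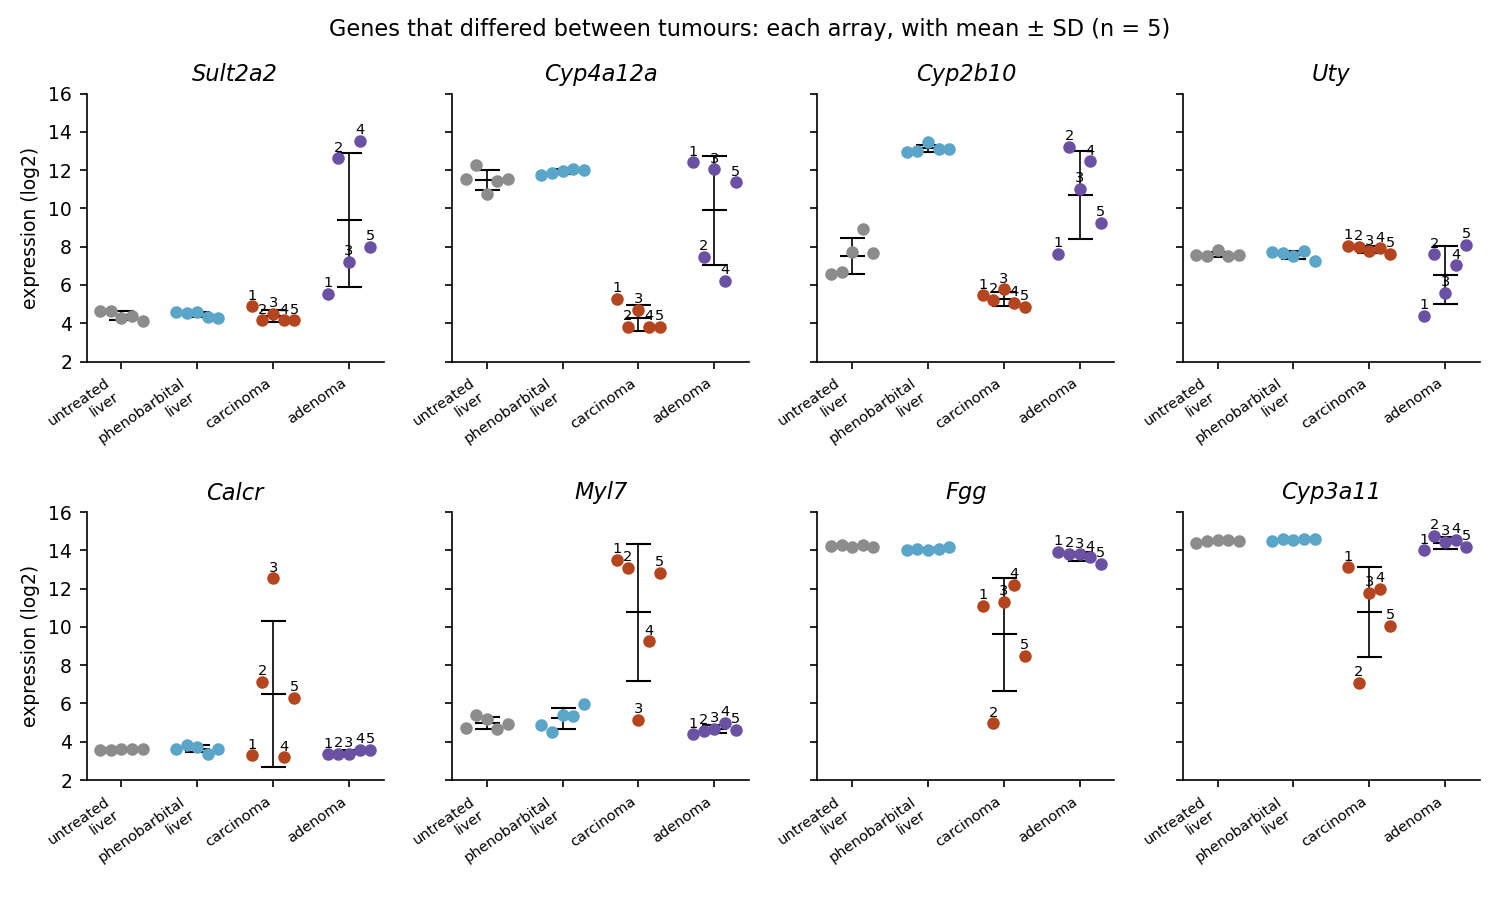
Log2 signal of Sult2a2, Cyp4a12a, Cyp2b10, Uty, Calcr, Myl7, Fgg and Cyp3a11 on the 20 arrays, by group; points are arrays, numbered in the tumours, and bars are means ± SD (n = 5). The livers form tight columns for most of these genes, while Sult2a2 runs from 5.54 to 13.54 in the adenomas, Calcr from 3.19 to 12.53 and Fgg from 4.96 to 12.20 in the carcinomas.

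To see which genes varied together, each gene's 5 values were sorted and divided at the widest gap, and the arrays on either side were recorded where that gap was at least 1. Among adenomas 814 genes (4.47%) had such a gap, against 28 (0.154%) in phenobarbital and 138 (0.759%) in untreated livers. In 599 of the 814 a single array stood apart, most often adenoma 2 (174 genes), 5 (165) or 4 (134), while adenomas 2 and 4 were set apart by 59 genes and adenomas 1 and 3 by 53. When 1 array stands apart its distance is far from those of the other 4, which raises the error. The test by its form thus passes such genes less easily, here 40 of the 599 against both livers. The order of divisions therefore differs among the called genes. Of the 184 genes that had a gap and were more variable than in both livers, 44 set adenomas 2 and 4 apart, 23 with that pair high and 21 with it low. A further 42 set adenomas 1 and 3 apart, 38 of them with that pair high, and 15 set adenomas 4 and 5 apart, 13 of them with that pair low.

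The genes high in adenomas 2 and 4 included Sult2a2, Catsperd, Igdcc4, Bpifa5 and Upp2. Igdcc4, a membrane protein of the immunoglobulin superfamily, was at 5.25, 9.05, 5.96, 9.27 and 5.10 against 4.72 ± 0.23 (SD, n = 5) in phenobarbital livers (spread difference 1.84, SE 0.21, limma adjusted p = 6.35e-05). Upp2, uridine phosphorylase, was at 5.74, 9.71, 5.96, 9.44 and 6.87, where the liver level is 11.23 ± 0.44 (SD, n = 5), so that the pair was nearest to liver. The genes low in that pair included Cyp4a12a, Keg1, Car4, Sdcbp2 and Kdf1. Kdf1 was at 8.38, 3.53, 7.54, 5.15 and 7.86 against 7.75 ± 0.13 (SD, n = 5), and Sdcbp2 at 9.82, 5.19, 8.56, 5.83 and 9.29. For Cyp4a12a and Kdf1 the other 3 adenomas were the ones near the liver level.

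Among the 42 genes that set adenomas 1 and 3 apart were those of 2 secreted Wnt inhibitors. Wif1, which binds Wnt proteins outside the cell, was at 6.98, 3.26, 7.12, 3.60 and 3.23 against 3.51 ± 0.14 (SD, n = 5) in phenobarbital livers. Adenomas 1 and 3 were raised and the other 3 lay at the liver level (spread difference 1.85, SE 0.15, limma adjusted p = 1.54e-06), while all 5 carcinomas lay between 13.69 and 13.78. Sfrp2, a secreted frizzled-related protein, had the same order at 7.07, 3.84, 8.26, 4.61 and 3.79 (spread difference 1.65, SE 0.23, adjusted p = 0.000359). Axin2, the standard readout of beta-catenin activity and looked up after its values were seen, was at 10.07, 8.66, 9.38, 8.21 and 9.61, above the liver level of 6.79 ± 0.13 (SD, n = 5) in every adenoma and lowest in adenomas 2 and 4 (adjusted p = 0.0179). The list of Wnt feedback and target genes as a whole did not divide the arrays this way. Of its 35 measured genes 4 were more variable in adenomas (11.4%, beside 8.34% of all genes) and 2 in carcinomas (5.71%, beside 6.12%), with 1 less variable in carcinomas, and its median distance from the adenoma mean was 0.0073, 0.0015, 0.03, -0.25 and 0.06 on arrays 1 to 5. C9, the last component of the complement pore, also divided the adenomas this way at 10.97, 6.47, 10.89, 7.43 and 7.55, with adenomas 1 and 3 closest to the 12.58 ± 0.12 (SD, n = 5) of phenobarbital liver (adjusted p = 0.00213).

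Other divisions of the adenomas cut across the first. Arginase 1 (Arg1), the last enzyme of the urea cycle, was at 6.71, 6.47, 10.23, 9.85 and 8.0 against 14.07 ± 0.05 (SD, n = 5), highest in adenomas 3 and 4 and below liver in all 5 (spread difference 1.56, SE 0.30, limma adjusted p = 0.00391). Hao2, a hydroxyacid oxidase, was also high in adenomas 3 and 4 at 6.94, 7.62, 10.16, 10.88 and 7.21 (adjusted p = 0.00449), as was Abcc12, a transporter, at 5.76, 5.41, 8.61, 8.35 and 5.92 (adjusted p = 3.24e-05). Bex1, which is at 13.65 or above in all 5 carcinomas, was at 6.06, 4.65, 8.84, 8.40 and 6.93 in the adenomas against 3.43 ± 0.19 (SD, n = 5) in liver. C8a, another complement component, was at 11.44, 9.61, 10.44, 6.68 and 7.26 against 11.97 ± 0.18 (SD, n = 5), low in adenomas 4 and 5 (adjusted p = 0.00451). Cyp2j5, an epoxygenase, was low in the same pair at 10.57, 9.95, 10.49, 6.39 and 7.88. Tbx1, a transcription factor present at 11.60 or above in all carcinomas, was raised in adenomas 1 and 2 at 8.16 and 8.57 and stood at 5.35, 5.14 and 5.13 in the other 3, near the liver level of 5.07 (adjusted p = 6.35e-05).

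**Figure D3:**
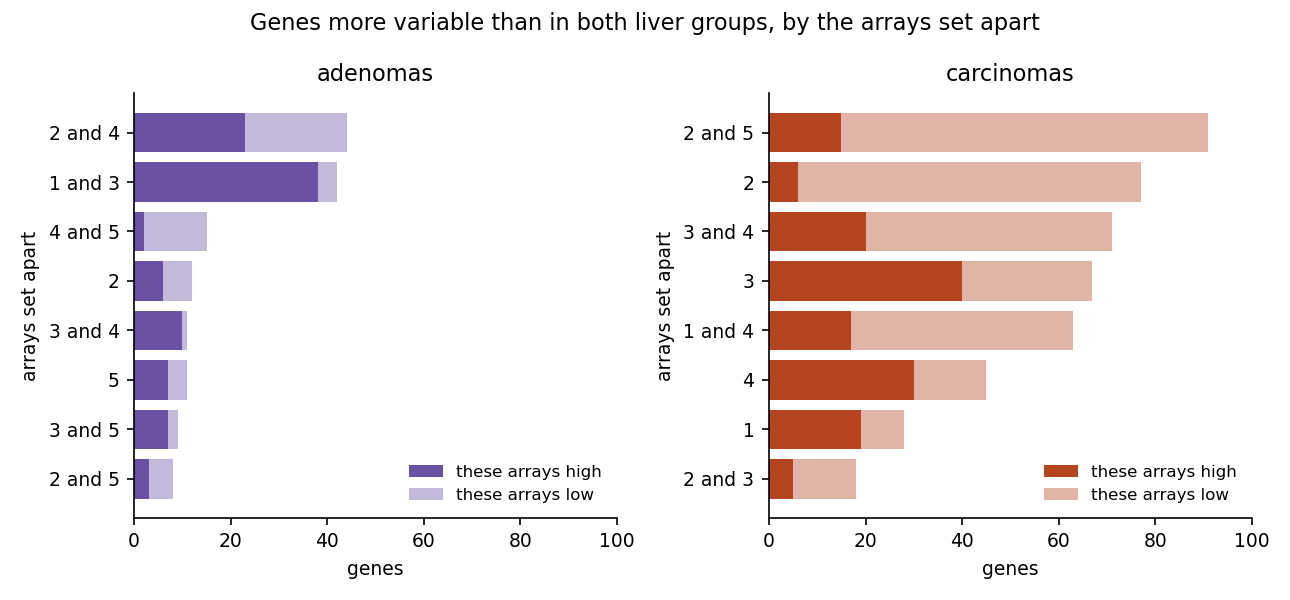
Number of genes more variable than in both liver groups, by the arrays that the widest gap of at least 1 log2 unit sets apart, for the 8 most frequent sets in each tumour type; dark bars count genes high in the set and light bars genes low in it. Among these called genes the pairs 2 and 4 (44 genes) and 1 and 3 (42) lead in adenomas. In carcinomas the pair 2 and 5 (91) and array 2 alone (77) lead. Among all genes with such a gap, called or not, adenoma 2 alone (174) and carcinoma 3 alone (522) lead.

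Of 17 measured P450 genes that CAR and the related receptor PXR induce, 7 were more variable in adenomas than in phenobarbital liver (41.2%, beside 8.34% of all genes). Against both livers 3 of the 17 passed, beside 4.58% of all genes. Cyp2b10, the standard CAR target, was at 7.64, 13.22, 11.01, 12.46 and 9.24 on adenoma arrays 1 to 5. Adenomas 2 and 4 lay near the 13.13 ± 0.19 (SD, n = 5) of phenobarbital liver, adenoma 1 lay near the 7.51 ± 0.95 (SD, n = 5) of untreated liver, and the other 2 lay between. The spread difference was 1.89 (SE 0.39, limma adjusted p = 0.00667) against phenobarbital livers and did not pass against untreated livers (adjusted p = 0.0661). Cyp3a11, which PXR and CAR also induce, was between 13.99 and 14.75 in the adenomas (SD 0.30, adjusted p = 0.773). The list as a whole had a median distance from the adenoma mean of -0.38, 0.88, 0.05, 0.19 and -0.50, highest in adenoma 2. The genes whose adenoma values were most like those of Cyp2b10, by the mean absolute difference of centred values over 5 arrays among 367 genes with an SD of at least 1, were Slc3a1 (0.453), Amdhd1 (0.473), Asns (0.650), Kyat1 (0.685) and Jam2 (0.740). Amdhd1, an enzyme of histidine breakdown, was at 4.19, 8.44, 6.10, 7.90 and 3.96 against 10.95 ± 0.08 (SD, n = 5), below liver in every adenoma. Asns, asparagine synthetase, was at 7.98, 10.80, 9.47, 11.14 and 7.75 against 7.36 ± 0.53 (SD, n = 5), above it in all 5.

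Meg3, the maternally expressed long RNA of the imprinted Dlk1-Dio3 region, was at 5.62, 13.25, 7.41, 10.62 and 6.85 in the adenomas. Adenomas 2 and 4 were above the 9.39 ± 0.58 (SD, n = 5) of phenobarbital livers and the other 3 below it. The spread difference was 2.33 (SE 0.67, limma adjusted p = 0.0384) against phenobarbital livers and did not pass against untreated livers (adjusted p = 0.102). The call was lost without adenoma 2 (difference 1.21, adjusted p = 0.305), adenoma 4 (0.0858), untreated array 1 (0.0502) or any phenobarbital array (0.0524 to 0.0841). It was also lost without untreated arrays 3 and 4 (0.0554), with the mean of its probe sets (0.0518), with a trended, robust prior (0.182) and after chromosome medians were subtracted (0.068). Rian, a neighbouring maternal RNA, was at 5.45, 8.01, 5.26, 6.51 and 5.16, also highest in adenomas 2 and 4, with an adjusted p of 0.0981. Dlk1, the paternally expressed gene of the region, was between 4.70 and 5.05. Meg3 was thus 1 called gene among 4 measured in the region (25%, beside 8.34% of all genes). By limma without adjustment 3 of the 4 were wider than in phenobarbital livers at p under 0.05, beside 4451 of 18193 genes. In the carcinomas Meg3 was at 5.57, 7.14, 11.30, 5.56 and 6.22, high in carcinoma 3, and did not pass (spread difference 0.90, SE 0.67, adjusted p = 0.48), and without that array the difference was -0.31. The adenoma genes most like Meg3 were Bpifa5 (0.842), Cyp2b10 (0.849), Catsperd (0.850), Igdcc4 (0.948) and Amdhd1 (1.01), and the carcinoma genes were Fads2b (0.179), Galnt13 (0.467), Nsg2 (0.476), Map2 (0.482) and Igf2 (0.503). Igf2, the imprinted fetal growth factor, was at 11.51 in carcinoma 3 and between 6.17 and 6.48 in the other 4, which did not pass (adjusted p = 0.0815).

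Targets of NRF2, a transcription factor of the response to oxidative stress, stood out in adenoma 5. Of 23 measured NRF2 targets 7 were more variable in adenomas than in phenobarbital liver (30.4%, beside 8.34% of all genes). Against both livers none passed by limma with adjustment, beside 4.58% of all genes. At an unadjusted p under 0.05 in both, 11 of the 23 were wider, beside 2929 of 18193 genes. The list's median distance from the mean was -0.14, -0.24, -0.02, -0.28 and 1.07. Slc7a11, the cystine importer, was at 5.96, 5.14, 7.65, 7.36 and 10.42 against 5.19 ± 0.12 (SD, n = 5), highest in adenoma 5 (spread difference 1.47, SE 0.42, limma adjusted p = 0.0363, and 0.061 against untreated livers). Hmox1, haem oxygenase 1, was at 8.0, 7.57, 8.01, 8.97 and 11.14 against 7.24 ± 0.18 (SD, n = 5), again highest there (adjusted p = 0.0397). Cbr3, a carbonyl reductase, was at 11.83, 9.31, 13.01, 10.51 and 13.93, with adenoma 3 nearly as high (adjusted p = 0.0333). The count was 11 without adenoma 1, 12 without adenoma 3, 3 without untreated arrays 3 and 4, and 2 after each chromosome's median was subtracted.

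Metabolic genes and genes of protein folding also varied between adenomas. Of 31 urea cycle and amino acid genes 8 were more variable (25.8%), of 43 respiratory chain genes 9 (20.9%), of 28 genes of fatty acid oxidation 6 (21.4%) and of 20 genes of protein folding in the endoplasmic reticulum 6 (30%), beside 8.34% of all genes. The median SD of the called genes was 0.867 for the urea cycle and amino acid list, 0.281 for the respiratory chain, 0.501 for fatty acid oxidation and 0.470 for folding. The respiratory chain genes had SDs between 0.22 and 0.37, and none of the 9 calls was kept after each chromosome's median was subtracted, while the count was 4 without adenoma 4. The fatty acid oxidation count was 2 without adenoma 1, 4 without adenoma 4, 3 without adenoma 5 and 1 after the chromosome medians were subtracted. The folding count was 3 without adenoma 1 and 2 without adenoma 3. Sdf2l1 and Creld2, both folding genes, were highest in adenomas 1 and 3, at 9.16 and 9.76 for Sdf2l1 and 10.41 and 10.78 for Creld2. Cyp2f2, the P450 of periportal hepatocytes and looked up after its values were seen, was at 5.43, 7.34, 7.21, 7.99 and 9.67 against 13.46 ± 0.05 (SD, n = 5), below liver on every array and by different amounts (adjusted p = 0.0414).

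Among lists of other cell types, stellate cell and fibroblast genes were called more often than all genes in the adenomas, and macrophage and endothelial genes were not. In bulk tissue, fewer cells of a type and less RNA per cell cannot be told apart. Of 40 stellate cell and fibroblast genes 8 were more variable than in phenobarbital liver (20%, beside 8.34% of all genes, and 3 without adenoma 4), with list distances of -0.67, 0.03, 0.21, 0.76 and -0.33. Lum, a collagen-binding proteoglycan, was at 6.84, 7.58, 8.75, 9.32 and 7.19 (limma adjusted p = 0.0105) and Pdgfrb, the receptor that marks stellate cells, at 7.13, 9.30, 8.36, 9.67 and 7.58 (adjusted p = 0.0413), both highest in adenoma 4. Macrophage and Kupffer cell genes, of which 1 of 29 passed, had list distances of -0.05, -1.02, 0.24, 0.41 and 0.26, lowest in adenoma 2, which was also the lowest for Ubd. By limma without adjustment 11 of the 29 were wider at p under 0.05, beside 4451 of 18193 genes. The median log2 ratio of SDs to phenobarbital liver was 1.75 over this list and 0.785 over all genes. Of 33 endothelial genes none passed limma with adjustment, and 2 had an unadjusted p under 0.05. The part of cell composition in the calls above was not tested.

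Adenomas also differed by whole chromosomes, a pattern looked for after gene values had been seen. For each array, the median difference from the other 4 arrays of its group was taken over the genes of each chromosome, among 12556 genes bright enough to be measured. In the adenomas 32 of 100 such values exceeded 0.15 in size, on 14 chromosomes, with a range from -0.42 to 0.54. In the carcinomas 2 of 100 did, -0.19 for chromosome 5 in carcinoma 3 and -0.15 for chromosome 7 in carcinoma 2, and in the livers none did, with a largest value of 0.068. The largest shift was on chromosome 14 in adenoma 5, where 88.0% of 408 genes were higher than in the other adenomas by a median of 0.54, and each sixth of the chromosome was between 0.38 and 0.69. Adenoma 2 was lower on chromosome 14 by a median of -0.42 and on chromosome X by -0.36, and higher on chromosome 1 by 0.31. Adenoma 4 was lower on chromosome 11 (-0.31) and higher on chromosome 12 (0.30), and adenoma 1 was lower on chromosome 12 (-0.29).

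Setting each adenoma against the 5 phenobarbital livers placed these shifts relative to non-tumour tissue. On chromosome 14 the medians were -0.46, -0.69, -0.36, -0.29 and 0.01, so that adenomas 1 to 4 lay below liver and adenoma 5 at its level. On chromosome 12 they were -0.43, -0.15, -0.33, -0.00068 and -0.17, on chromosome 15 all positive at 0.40, 0.08, 0.30, 0.20 and 0.17, and on chromosome 1 they were 0.07, 0.41, 0.09, 0.22 and 0.02. When the chromosome medians were subtracted before the test, 720 genes were more variable in adenomas than in phenobarbital liver in place of 1518, and 346 rather than 834 than in both livers. Of the 15 leading adenoma genes Cyp2c65 lost its call (limma adjusted p = 0.0559). Without the filter on dim genes the shifts were smaller, 0.24 for chromosome 14 in adenoma 5, -0.24 for it in adenoma 2 and -0.18 for chromosome X in adenoma 2. DNA was not measured in these samples.

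**Figure D4:**
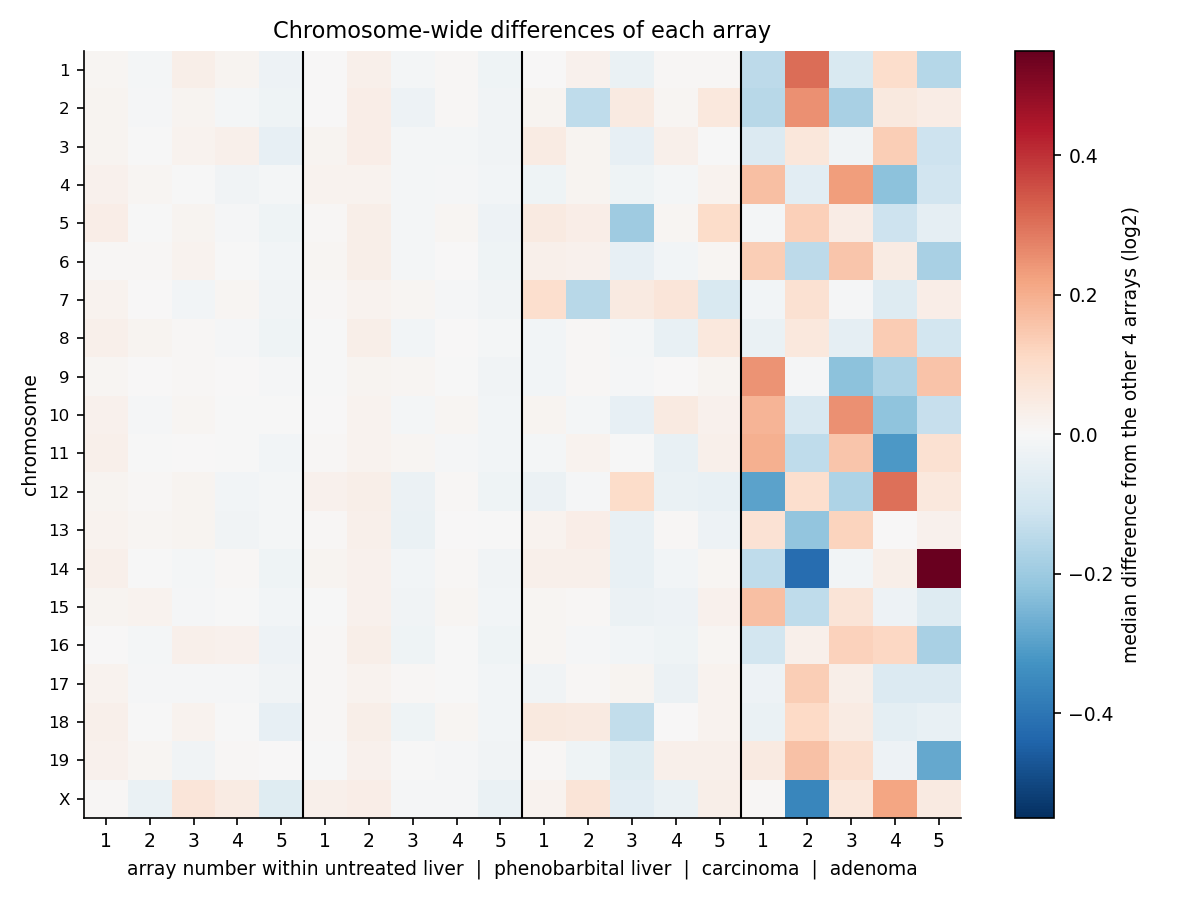
Median difference of each array from the other 4 arrays of its group (log2 units, colour) over the genes of each of 20 chromosomes, for the 20 arrays in the order untreated liver, phenobarbital liver, carcinoma and adenoma. The adenoma columns hold 32 values past 0.15 in size, up to 0.54 for chromosome 14 in adenoma 5, the carcinoma columns 2 and the liver columns none.

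Genes of the Y chromosome, also looked up after values had been seen, varied between tumours of these male mice. Uty, a histone demethylase gene, was at 4.40, 7.60, 5.59, 7.03 and 8.08 in the adenomas against 7.59 ± 0.21 (SD, n = 5) in phenobarbital livers, low in adenomas 1 and 3 (spread difference 1.21, SE 0.21, limma adjusted p = 0.00243). Kdm5d, at 4.12, 5.75, 5.09, 6.23 and 7.05, and Eif2s3y, at 5.70, 9.14, 6.91, 8.65 and 10.04, ran in nearly the same order. Their adjusted p was 0.037 and 0.00601. In the carcinomas Uty stayed between 7.61 and 8.04 and Kdm5d between 7.51 and 7.89. Eif2s3y, a translation initiation factor, was by contrast at 10.30, 10.30, 5.55, 6.08 and 10.26 there, low in carcinomas 3 and 4 alone (spread difference 2.34, SE 0.30, adjusted p = 0.000123). Xist, the RNA of the inactive X chromosome, was between 5.02 and 5.56 on all 20 arrays.

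In the carcinomas, of the 49 lists that of secreted and identity proteins of hepatocytes had the most called genes. Of 34 measured genes of this kind 22 were more variable than in untreated liver (64.7%, beside 6.12% of all genes), against 2 in adenomas than in phenobarbital liver, and the median log2 ratio of SDs was 3.24 over the list and 0.44 over all genes. The list's median distance from the carcinoma mean was 1.23, -1.62, 0.57, 0.88 and -0.55 on arrays 1 to 5. By this median carcinoma 1 was highest and carcinoma 2 lowest, with carcinoma 5 the next lowest. Single genes could differ from this order, since Alb and the fibrinogen genes below were highest in carcinoma 4. The count was 20 to 23 when any single carcinoma was left out. It was 15 without untreated arrays 3 and 4, 2 with only the 10 arrays compared in the fit and 1 with squared distances, and 14 of the 22 genes had a mean above 13 in untreated liver.

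The fibrinogen genes, which encode the 3 chains of the clotting protein, were near the top of this group. Fgg, the gamma chain, was at 11.09, 4.96, 11.30, 12.20 and 8.50 on carcinoma arrays 1 to 5, against 14.22 ± 0.05 (SD, n = 5) in untreated livers and 13.29 to 13.91 in the adenomas. Carcinoma 2 was far below the others and carcinoma 5 between (spread difference 2.53, SE 0.46, limma adjusted p = 0.00295). Fga, the alpha chain, was at 9.84, 4.64, 9.59, 11.24 and 7.12 (spread difference 2.24, SE 0.39, adjusted p = 0.00206) and Fgb, the beta chain, at 10.58, 5.29, 10.29, 11.70 and 8.33 (spread difference 2.11, SE 0.42, adjusted p = 0.00537). All 3 chains had the order 4 highest, 5 next to lowest and 2 lowest. The 3 genes are neighbours on chromosome 3, and the 250 bases before each start site, taken from RefSeq on GRCm38.p6, are printed here because these genes moved together. Capitals mark matches to GTTAAT, part of the site of the hepatocyte factor HNF1, and to TTGCNNAA, the site of C/EBP factors, searched on both strands. They are the promoters of Fga at chr3:83025903-83026152 (plus strand), Fgb at chr3:83049864-83050113 (minus strand) and Fgg at chr3:83007474-83007723 (plus strand).
Fga: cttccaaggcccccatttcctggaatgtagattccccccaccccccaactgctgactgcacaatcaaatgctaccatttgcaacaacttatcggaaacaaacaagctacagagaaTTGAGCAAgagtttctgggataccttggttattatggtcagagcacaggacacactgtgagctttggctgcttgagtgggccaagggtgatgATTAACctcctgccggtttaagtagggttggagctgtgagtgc
Fgb: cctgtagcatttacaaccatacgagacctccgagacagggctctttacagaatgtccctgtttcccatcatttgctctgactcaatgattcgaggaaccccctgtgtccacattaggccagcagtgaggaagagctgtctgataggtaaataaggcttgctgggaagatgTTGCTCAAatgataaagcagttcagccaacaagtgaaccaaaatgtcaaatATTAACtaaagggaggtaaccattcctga
Fgg: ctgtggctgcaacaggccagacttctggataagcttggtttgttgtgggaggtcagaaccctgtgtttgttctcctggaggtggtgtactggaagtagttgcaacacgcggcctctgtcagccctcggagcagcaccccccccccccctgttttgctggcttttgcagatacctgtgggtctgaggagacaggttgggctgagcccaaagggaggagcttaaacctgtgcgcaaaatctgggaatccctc
The promoters of Fga and Fgb each hold a match to both motifs, which do not overlap, and that of Fgg holds neither. GTTAAT was present in 6.43% and TTGCNNAA in 9.56% of 32851 mouse promoters of the same length, so a match describes these letters only. TATAAA, the TATA box, was in none of the 3 windows and in 12.4% of all.

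Other secreted proteins followed the fibrinogens. Apoc3, an apolipoprotein of triglyceride-rich particles, was at 12.03, 5.79, 10.78, 11.60 and 8.74 against 14.49 ± 0.04 (SD, n = 5), and Itih3, which binds hyaluronan, at 9.81, 4.0, 9.16, 10.30 and 7.03 against 12.90 ± 0.17 (SD, n = 5). Their limma adjusted p was 0.00295 and 0.00414. Of 27 acute phase genes 14 were more variable in carcinomas (51.9%, beside 6.12% of all genes, and 11 to 16 when any single carcinoma was left out, 2 with only the 10 arrays compared, none with squared distances), with list distances of 1.31, -1.32, 0.53, 1.33 and -0.91. Orm1, an acute phase protein that carries drugs, was at 9.41, 4.0, 8.74, 9.70 and 5.96 (adjusted p = 0.00101). Saa1, serum amyloid A, was at 8.74, 3.28, 8.31, 9.38 and 5.19 against 10.82 ± 0.73 (SD, n = 5). Its call (adjusted p = 0.0194) was lost without untreated array 2 (0.0569), carcinoma 5 (0.0633) or carcinoma 2, where the difference was 0.91 (0.260), and with a trended, robust prior (0.192).

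Serpina7, the carrier of thyroid hormone, and Mug1, a protease inhibitor, belong to the 15 leading carcinoma genes as well. Serpina7 was at 9.76, 2.83, 6.84, 6.87 and 4.84, high in carcinoma 1 and low in 2 (limma adjusted p = 0.0415). That call was lost when 12 of the 20 arrays were left out in turn: untreated 1, 2, 4 and 5, all 5 phenobarbital, adenoma 1, and carcinomas 2 (difference 1.18, adjusted p = 0.122) and 5 (0.0728). Mug1 was at 10.22, 4.42, 9.43, 10.85 and 8.22, and its call (adjusted p = 0.0339) was lost without untreated array 1, 2, 4 or 5 (0.0685 to 0.0724). Both share the low value of carcinoma 2 with the fibrinogens.

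Enzymes of hepatocytes varied in a similar but not identical order. Of 31 urea cycle and amino acid genes 19 were more variable in carcinomas than in untreated liver (61.3%, beside 6.12% of all genes). The count was 16 to 19 without any single carcinoma, 6 with only the 10 arrays compared and 4 with squared distances. The list distances were 0.49, -0.75, 0.35, 0.92 and -0.54. Tdo2, which opens the tryptophan ring, was at 10.67, 4.48, 9.54, 9.94 and 7.37 against 14.11 ± 0.05 (SD, n = 5), low in carcinoma 2 (spread difference 2.17, SE 0.39, limma adjusted p = 0.00254). Cps1, the entry enzyme of the urea cycle, was at 6.25, 4.35, 9.01, 9.85 and 5.85 against 14.10 ± 0.09 (SD, n = 5), high in carcinomas 3 and 4 and low in carcinoma 1 as well (spread difference 2.06, SE 0.53, adjusted p = 0.025). Pck1, the enzyme that commits carbon to glucose synthesis, was also highest in carcinomas 3 and 4, at 4.89, 4.33, 7.93, 8.91 and 3.77 (adjusted p = 0.00489). Arg1 was at 10.38, 5.56, 10.09, 10.01 and 6.60, low in carcinomas 2 and 5 (adjusted p = 0.000396). Of 24 periportal genes 10 and of 15 genes of glucose synthesis and fasting 4 were more variable in carcinomas (41.7% and 26.7%, beside 6.12% of all genes). With only the 10 arrays compared these counts were 4 and 2.

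Genes of drug handling were highest in carcinoma 1. Of 34 phase II and transport genes 10 were more variable in carcinomas (29.4%, beside 6.12% of all genes), with list distances of 0.88, -0.75, 0.23, 0.02 and -0.37. Of 27 bile acid genes 6 were (22.2%), with distances of 0.88, -0.68, 0.22, 0.34 and -0.40. Ugt2b5, a glucuronosyltransferase, was at 10.74, 4.36, 9.12, 8.27 and 6.61 against 13.72 ± 0.09 (SD, n = 5) (limma adjusted p = 0.00744). Fabp1, the fatty acid binding protein of liver, was at 13.19, 6.52, 11.08, 11.08 and 9.98 (adjusted p = 0.0382), and Slco1b2, an uptake transporter, at 9.82, 4.13, 7.84, 8.0 and 5.62 (adjusted p = 0.0096). Carcinoma 1 was the highest array for all 3 and carcinoma 2 the lowest. The bile acid count was 10 without carcinoma 3, and with only the 10 arrays compared both counts were 1.

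Cyp3a11, a major P450 of liver, was at 13.11, 7.06, 11.76, 11.99 and 10.06 in the carcinomas against 14.48 ± 0.06 (SD, n = 5) in untreated livers. The order was again 1 highest and 2 lowest, with a spread difference of 1.95 (SE 0.41, limma adjusted p = 0.00695). Leaving out any single array did not end this call, but the fit on the 10 arrays compared did (adjusted p = 0.116). The carcinoma genes most like it, among 693 with an SD of at least 1, were Tdo2 (0.208), Cdo1 (0.211), Akr1c6 (0.219), Ambp (0.223) and Apoa2 (0.224), which encode enzymes and plasma proteins of hepatocytes. Cyp2b10, by contrast, was between 4.84 and 5.77 in the carcinomas, below the 7.51 ± 0.95 (SD, n = 5) of untreated liver on every array, with a spread difference of -0.48 that did not pass (adjusted p = 0.521).

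**Figure D5:**
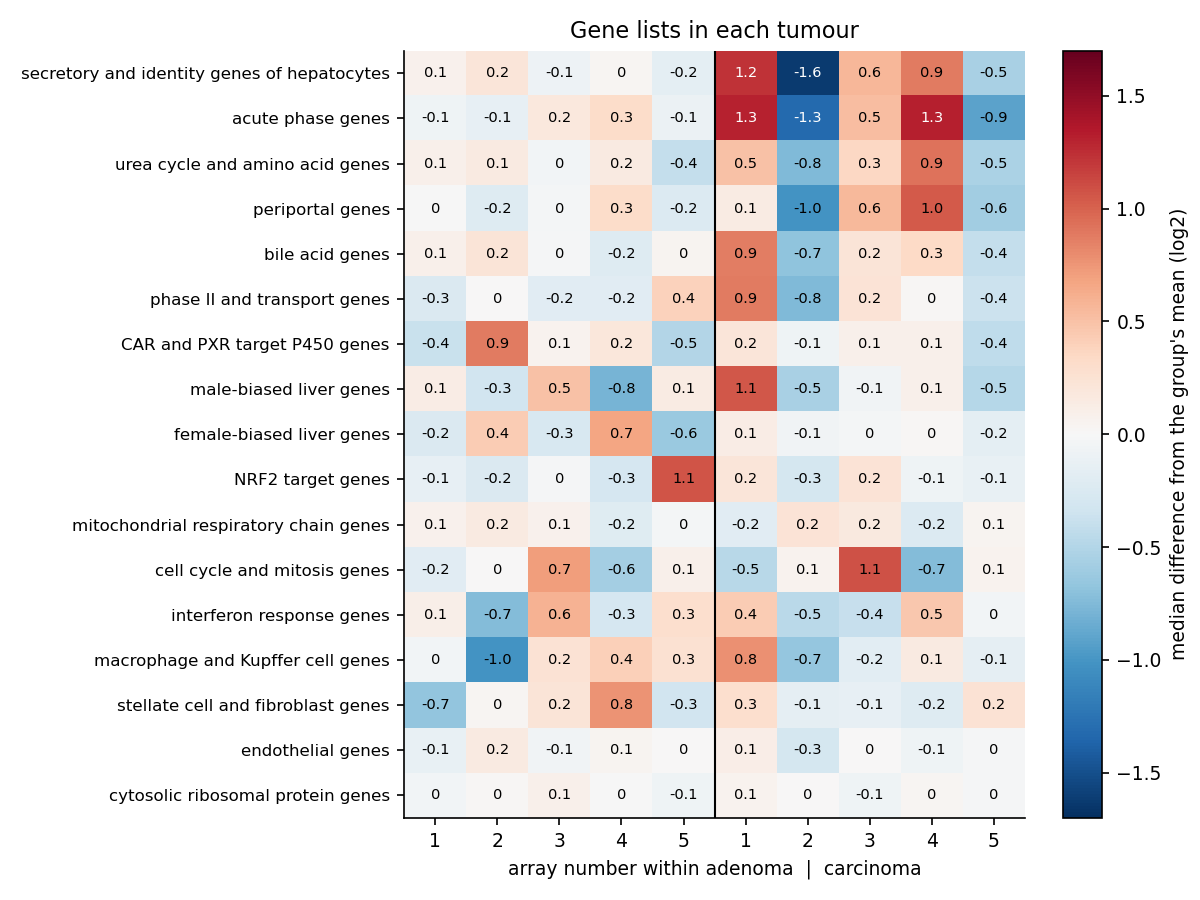
Median difference from the group's mean (log2 units, colour and printed to 1 decimal) over the genes of 17 lists, for the 5 adenomas and the 5 carcinomas. The list of secreted and identity proteins runs from high in carcinoma 1 to low in carcinoma 2 (1.23 and -1.62). The acute phase list and the urea cycle and amino acid list are highest in carcinoma 4. The list of CAR and PXR targets is lowest in carcinoma 5 (-0.43), and the NRF2 list is high in adenoma 5 (1.07).

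Genes that are not part of the normal hepatocyte programme divided the carcinomas in other ways. Calcr, the calcitonin receptor, had the largest SD of all genes, 3.81. It was at 3.28, 7.14, 12.53, 3.19 and 6.31, against 3.59 ± 0.02 (SD, n = 5) in untreated livers and 3.35 to 3.59 in the adenomas. Carcinoma 3 was highest, 2 and 5 were intermediate and 1 and 4 lay at the liver level (spread difference 2.97, SE 0.77, limma adjusted p = 0.025). Arpp21, a phosphoprotein of neurons, was also highest in carcinoma 3 and lowest in 1 and 4, at 3.75, 6.12, 10.48, 3.78 and 6.75 (adjusted p = 0.0377). So was St18, a zinc finger factor, at 3.59, 6.57, 9.82, 3.92 and 7.10 (adjusted p = 0.00621). The call of Calcr was lost without untreated array 1, 2, 3 or 5 (0.0502 to 0.0514). That of Arpp21 was lost without any untreated array (0.0646 to 0.0768) or carcinoma 4 (0.0508).

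Myl7, the myosin light chain of heart atrium, was at 13.51, 13.08, 5.16, 9.24 and 12.82 against 4.97 ± 0.31 (SD, n = 5). Carcinomas 1, 2 and 5 were high, carcinoma 4 was between and carcinoma 3 lay at the liver level (spread difference 2.90, SE 0.53, limma adjusted p = 0.00297). Dsc3, a desmocollin of cell junctions, was also at the liver level of 4.06 in carcinoma 3 only, at 10.72, 9.99, 4.03, 7.45 and 7.09, and its call (adjusted p = 0.0137) was lost without carcinoma 1 (0.0633) or 2 (0.0555). Of the 15 leading carcinoma genes 4 had another probe set. That of Dsc3, with a carcinoma mean of 4.63, had an SD of 0.20 and another division. Those of Arpp21 (SD 0.96 to 2.19), Saa1 (2.35) and St18 (1.43) gave the same division of the carcinomas. Cnn1, a calponin of smooth muscle, was at 10.64, 9.81, 6.48, 7.08 and 9.97 against 4.0 ± 0.10 (SD, n = 5) (spread difference 1.73, SE 0.18, adjusted p = 1.94e-05), and Myh11, the smooth muscle myosin, at 7.92, 8.03, 5.16, 5.06 and 8.79 against 5.10 ± 0.30 (SD, n = 5) (adjusted p = 8.93e-05), both highest in carcinomas 1, 2 and 5. Unc45b, a chaperone of myosin, was high in carcinomas 2, 3 and 5 instead, at 5.43, 9.35, 9.22, 4.83 and 9.33 (adjusted p = 1.94e-05). Of 24 muscle genes 2 were more variable in carcinomas (8.33%, beside 6.12% of all genes), with other orders, Tnni1 at 9.05, 11.56, 11.77, 8.45 and 10.83 and Acta1 at 6.62, 8.14, 6.99, 6.23 and 9.03.

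Rpl39l, a ribosomal protein gene of testis, had the smallest adjusted p among the leading carcinoma genes. It was at 3.92, 9.01, 4.79, 8.74 and 3.92 against 4.20 ± 0.31 (SD, n = 5), with carcinomas 2 and 4 high and the other 3 near liver (spread difference 2.26, SE 0.22, limma adjusted p = 1.94e-05). It alone of the 15 kept its call with only the 10 arrays compared in the fit, and it kept it with squared distances too. Mmp12, the elastase of macrophages, was at 10.31, 4.58, 8.07, 9.18 and 4.90, and its call (adjusted p = 0.00863) was lost without carcinoma 2 (0.118) or 5 (0.0993). Calcb, a calcitonin-related peptide gene, was at 9.62 in carcinoma 4 and between 3.72 and 4.62 in the others (adjusted p = 0.0416). Without carcinoma 4 its spread difference was 0.16 (adjusted p = 0.495), and its call was also lost without any single untreated or phenobarbital array or adenoma 1 or 3. Without untreated arrays 3 and 4 together, the calls of Calcr (0.0922), Arpp21 (0.121), Dsc3 (0.0692), Saa1 (0.0511), Serpina7 (0.0873), Calcb (0.148) and Mug1 (0.0759) were lost.

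Single genes of other kinds gave further divisions of the carcinomas. Hoxc8 was at 4.53, 8.78, 5.81, 8.73 and 8.89 and Hoxc4 at 4.59, 7.93, 6.29, 7.73 and 8.34, both transcription factors of the trunk and both high in carcinomas 2, 4 and 5 (limma adjusted p = 4.02e-05 and 0.00389). Krt7, a keratin of bile ducts, was at 7.55, 11.26, 11.10, 8.99 and 10.51 (adjusted p = 0.00204), lowest in carcinoma 1. Epcam, a surface protein of bile duct and progenitor cells, was at 7.13, 6.15, 8.46, 10.47 and 5.74 (adjusted p = 0.0385), highest in carcinoma 4. Its other probe set had a carcinoma mean of 6.20 and an SD of 0.19. Gata6, an endoderm factor, was at 8.75, 6.19, 6.33, 9.12 and 7.48, and Dsg2, a desmoglein, at 9.30, 5.26, 6.50, 9.68 and 7.25, both highest in carcinomas 1 and 4 (adjusted p = 0.00469 and 0.00118). Trp63, the epithelial relative of p53, was at 9.02 in carcinoma 4 and between 3.98 and 4.72 in the others (adjusted p = 0.0394). Its other probe sets had carcinoma means of 3.72, 3.47 and 4.02 and SDs of 0.04, 0.03 and 0.56. As lists, Hox and T-box genes had 4 of 30 more variable in carcinomas (13.3%), markers of fetal liver and liver tumours 3 of 36 (8.33%) with 4 less variable, and bile duct genes 3 of 18 (16.7%) with 1 less variable. Over all genes 6.12% were more and 0.528% less variable, so the share of the fetal liver list was near that of all genes.

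Divided at the widest gap, 1393 genes (7.66%) had a gap of at least 1 between carcinomas, and in 1055 of them a single array stood apart, carcinoma 3 in 522, carcinoma 4 in 266, carcinoma 1 in 138 and carcinoma 2 in 113. Carcinomas 2 and 5 were set apart by 108. The order was different among called genes, since 67 of the 522 genes with carcinoma 3 apart passed against both livers and 91 of the 108 with carcinomas 2 and 5 apart. Of the 494 genes that had a gap and passed against both livers, the 91 that set carcinomas 2 and 5 apart had that pair low in 76. A further 77 set carcinoma 2 apart alone, 71 of them low. Carcinomas 3 and 4 were set apart by 71 genes, 51 of them low, carcinoma 3 alone by 67, 40 of them high, and carcinomas 1 and 4 by 63, 46 of them low. Fga, Saa1, Orm1 and Fgl1 were among the genes low in carcinomas 2 and 5, and Fgg, Fgb, Apoc3, Itih3 and Mug1 among those low in carcinoma 2 alone. Myh11, Cnn1, Stap1 and Eif2s3y were low in carcinomas 3 and 4, and Unc45b, Coch, Clstn2 and Gpx3 in carcinomas 1 and 4.

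Oat, ornithine aminotransferase, is a pericentral Wnt target. It was at 11.76, 11.85, 13.79, 11.86 and 11.82 in the carcinomas against 13.67 ± 0.18 (SD, n = 5) in untreated livers, so that carcinoma 3 was at the liver level and the other 4 lay between 11.76 and 11.86. The spread difference of 0.56 (SE 0.18) did not pass against untreated livers (limma adjusted p = 0.0756) and passed against phenobarbital livers (0.0485). Without carcinoma 3 it was -0.11, and without carcinoma 1, 2, 4 or 5 it was 0.70 to 0.71 and passed (adjusted p = 0.0134 to 0.0187), as it did with a trended, robust prior (0.0175). In the adenomas Oat was between 13.92 and 14.36 (SD 0.16, adjusted p = 0.963). Its closest genes in carcinomas were Slc4a1 (0.105), Sh3bp5 (0.145), Myt1l (0.152), Mapk11 (0.165) and Esco2 (0.167). Sh3bp5 was likewise near the liver level of 10.34 in carcinoma 3, at 10.77, and at 8.28 to 8.57 in the other 4.

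Lists of other cell types and of mitosis are given beside the hepatocyte results. By limma none of the 29 macrophage and 34 mitosis genes passed with adjustment in the carcinomas, beside 6.12% of all genes. Without adjustment 3 and 7 were wider at p under 0.05, beside 3255 of 18193 genes. The list distances were 0.78, -0.65, -0.18, 0.15 and -0.15 for macrophage and Kupffer cell genes, lowest in carcinoma 2, and -0.47, 0.06, 1.08, -0.74 and 0.06 for mitosis genes. Of 33 endothelial genes 5 were more variable (15.2%, beside 6.12% of all genes) and 1 less, of 40 stellate cell and fibroblast genes 5 (12.5%) and 3, and of 11 red cell genes 1, Alas2, at 9.41 in carcinoma 3 and 5.15 to 5.38 in the others. Leaving out a single carcinoma gave 7 to 10 endothelial genes, and leaving out untreated arrays 3 and 4 gave 1. The part of cell composition in the hepatocyte results was not tested. Respiratory chain genes gave 8 calls of 43 in carcinomas (18.6%, beside 6.12% of all genes) with distances of -0.19, 0.24, 0.16, -0.23 and 0.05. This count was 3 without carcinoma 1, 2 without carcinoma 4, 12 without carcinoma 2 and 17 without carcinoma 5. Cyc1, cytochrome c1, was at 11.34, 11.97, 12.03, 11.24 and 11.82, low in carcinomas 1 and 4 (adjusted p = 0.00113).

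Some genes differed in variability between adenomas under phenobarbital and untreated carcinomas, each set against its own liver. The difference of the 2 matched comparisons, tested for each gene, was larger in adenomas for 187 genes (1.03%) and larger in carcinomas for 116 (0.638%). Sult2a2 (adjusted p = 0.00728), Cyp4a12a (0.00835), Anxa13 (0.00178), Susd4 (0.0108), Catsperd (0.0325), Car4 (0.0219) and Cyp2b10 (0.0374) were among those of adenomas. Myl7 (0.0378) and Rpl39l (0.00124) were among those of carcinomas. All of these p-values are from limma with Benjamini-Hochberg adjustment. Fgg, which passed in the direct comparison of carcinomas with adenomas (0.00373), did not pass here (0.0707).

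The remaining lists were read beside 8.34% of all genes more variable in adenomas and 6.12% in carcinomas. Of 35 such lists in adenomas, 14 had 3 or more genes more variable than in phenobarbital liver. They were 7 of 36 markers of fetal liver and liver tumours, 6 of 24 periportal genes, 5 of 34 phase II and transport genes, 5 of 20 hypoxia genes (2 after chromosome medians were subtracted), 4 of 20 genes of cholesterol synthesis, 4 of 17 of glycolysis, 4 of 22 p53 targets, 4 of 23 of the integrated stress response, 4 of 31 pericentral and 4 of 33 neural genes. The others were 3 each of 15 heat shock, 15 growth hormone axis, 32 interferon response and 30 Hox and T-box genes. A further 13 lists had 1 or 2, and 8 had none by limma with adjustment: lipogenesis, lipid droplets, immediate early genes, neutrophils, MHC class II, red cells, adipose tissue and muscle. Of the 147 entries of these 8 lists, 29 were wider at an unadjusted p under 0.05, beside 4451 of 18193 genes. Of 31 remaining lists in carcinomas, 5 had 3 or more. They were 6 of 31 pericentral genes, 4 of 17 P450 targets of CAR and PXR, 3 of 20 genes of lipid droplets, 3 of 18 of iron regulation and 3 of 33 neural genes. A further 16 lists had 1 or 2 and 10 had none by limma with adjustment. Of the 215 entries of those 10 lists, 23 were wider at an unadjusted p under 0.05, beside 3255 of 18193 genes. Ldhd, a lactate dehydrogenase, was at 11.37, 9.81, 12.02, 9.90 and 11.92 in the adenomas against 10.74 ± 0.04 (SD, n = 5) in phenobarbital livers, on either side of the liver level and low in adenomas 2 and 4 (limma adjusted p = 0.000311). Mx1, an interferon-induced GTPase, was at 6.02, 5.36, 7.71, 5.89 and 7.84, highest in adenomas 3 and 5 (adjusted p = 0.000867). Noct, a clock-controlled deadenylase, was at 7.87, 7.58, 8.36, 11.97 and 10.78 against 10.19 ± 0.70 (SD, n = 5), low in adenomas 1 to 3 (adjusted p = 0.00641).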

How the data were processed

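RNA of 20 mouse liver samples was measured on Affymetrix arrays. The authors deposited 1 table of log2 expression values for 45037 probe sets, normalized by RMA per the submitters' processing notes, and the log2 scale was judged from the values (2.67 to 15.09). No column belonged to another sample, no value was missing and no 2 arrays were identical. The number of arrays limits the precision, and depth has no meaning here.

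Of the probe sets 34945 carried a single gene symbol in the platform annotation, 932 several and 9160 none. 34741 of the first matched RefSeq (GRCm38.p6). For each of 18193 genes the brightest probe set on average was kept (9010 genes had several). The absolute distance of each array from its group's mean, times sqrt(n/(n - 1)), was fitted for 4 groups over all 20 arrays with limma 3.58.1 in R 4.3.3 (16 residual degrees of freedom), with Benjamini-Hochberg adjustment over all genes. The fit was also run on simulated normal values in which some genes had a wider spread in the adenoma group only. That setting is simpler than these data, so it cannot show how often calls here are false. Tables and figures were made with Python 3.11.15, pandas 2.3.3 and matplotlib 3.10.9, and the exact permutation test over 252 regroupings with scipy 1.17.1.

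Named genes were, per tumour type, the 15 with the largest SD among genes more variable than in both liver groups, the 4 genes Meg3, Cyp2b10, Cyp3a11 and Oat, up to 5 per division of the arrays and 5 most like each of the 4, and up to 3 members of each described list by SD, leaving aside gene models with provisional symbols. Alb, Alas2, Apc, Axin2, Cyp2f2, Dlk1, Xist, the Y genes, and other list members were named after their values were seen. The 49 gene lists (1073 measured genes) and the members were chosen with earlier results of these data known.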

Additional observations from a re-analysis of the deposited data

Results flagged for a closer look

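The 5 values of 93 genes were looked at in 110 pairs of a gene and a tumour type, those whose 5 values or range are given above. A single array lay far from the other 4 in 9 pairs. The gap to the nearest array, as a share of the group's whole range, was 0.873 for Cxcl2 in adenomas (adenoma 3). In carcinomas it was 0.948 for Alas2, 0.942 for Igf2, 0.950 for Oat, 0.881 for Sh3bp5 and 0.725 for Meg3 (all carcinoma 3), 0.847 for Calcb and 0.852 for Trp63 (both carcinoma 4), and 0.739 for Bex1, where carcinoma 3 was lowest in a range of 13.65 to 13.89. The limit was 0.71 for 5 samples, and chance passes it in about 1 group of 20.

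Of the 303 genes in which the spread difference of adenomas from phenobarbital livers differed from that of carcinomas from untreated livers, by limma with adjustment over all genes, 26 are among the 93. In log2 units, the difference of these differences was larger in adenomas for 16. It was 3.08 for Sult2a2, 2.34 for Cyp4a12a, 2.89 for Anxa13, 1.85 for Susd4, 1.63 for Catsperd, 1.87 for Car4, 2.37 for Cyp2b10, 2.54 for Cyp2b9, 1.44 for Abcc12, 1.63 for Igdcc4, 1.55 for Noct, 1.76 for Sdcbp2, 1.698 for Sfrp2, 1.62 for Tbx1, 1.698 for Upp2 and 1.99 for Wif1. It was larger in carcinomas for 10, at -3.20 for Myl7, -2.31 for Rpl39l, -1.67 for Cnn1, -1.55 for Dsg2, -1.32 for Hoxc4, -1.91 for Hoxc8, -1.29 for Krt7, -1.48 for Myh11, -1.36 for Tnni1 and -1.96 for Unc45b. Tumour type and diet cannot be told apart in these.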

How the results depend on the processing

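With distances from the group median the counts of called genes were 0 in all 9 comparisons (limma). In the order adenoma against phenobarbital liver, carcinoma against untreated liver, adenoma against untreated, carcinoma against phenobarbital, adenoma against carcinoma, the 2 livers, the difference of the matched comparisons, adenoma against both livers and carcinoma against both, squared distances gave 371, 177, 303, 232, 564, 0, 0, 282 and 170 called genes. Of the last, 276 and 169 were also called with absolute distances. With only the groups compared in the fit, the counts that changed by over 1.5 times were 604, 104, 194, 387, 117, 173 and 96 (comparisons 1 to 5, 8 and 9). Without untreated arrays 3 and 4 they were 495 (carcinoma against untreated), 491 (adenoma against untreated), 2 (the livers), 67 (difference), 468 and 475 (both livers). After chromosome medians were subtracted they were 720, 416 and 346 for adenomas against phenobarbital, untreated and both livers. For the 2 livers, 8 genes were less variable under phenobarbital, and 4 with the mean of probe sets, 3 with a trended, robust prior and 5 with arrays centred. The difference of the matched comparisons gave 197 with the trended prior. With a gap of at least 0.5, 3667 adenoma and 4082 carcinoma genes were divided, and with 2, 142 and 282. The causes were not tested.

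Leaving out single arrays gave 878 to 1929, 721 to 1832, 529 to 1334, 866 to 2400, 1369 to 1913, 0 to 26, 147 to 589, 498 to 1186 and 658 to 1655 called genes in the same order, with the highest values of all 3 carcinoma and liver comparisons without carcinoma 5. The difference in array distance was 0.0734 to 0.0908 for adenomas (exact p = 0.0159) and 0.0383 to 0.0610 for carcinomas (0.0159 to 0.0317). Signs turned for Meg3 in carcinomas (-0.31 without carcinoma 3, range to 1.43), Oat in carcinomas (-0.11 without carcinoma 3, range to 0.71), Oat in adenomas (-0.0050 without phenobarbital array 1, -0.0033 without adenoma 1, -0.0045 without adenoma 4, range to 0.055), and chromosome 12 in adenoma 4 against livers (-0.00068).

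Same-numbered arrays did not deviate together: over 30 pairs their correlations lay between -0.112 and 0.133, 1 over 0.1. In 7 of 30 the correlation was highest with the own number. Samples of the same mouse need not deviate together, so these values cannot show whether same-numbered arrays share a mouse. With the replicate number as a block, 1354 and 987 genes were called against the matched livers, and 729 and 871 against both.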
